A study of Homo sapiens with 4 samples.

Results

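Genes of the mesenchymal neuroblastoma state were examined in NGP, an established human neuroblastoma line with amplified MYCN. The members were 9 genes fixed by symbol, namely VIM, FN1, CD44, ITGB1, NOTCH2, YAP1, WWTR1, SNAI2 and PRRX1, and each was looked up by its Ensembl identifier. The deposited count table holds 25693 genes, and 8 of the 9 members had a row. YAP1 (ENSG00000137693) had none. Every gene listed in the table has at least 1 count.

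All cells were NGP cells synchronised by removing serum and then kept for 24 h with Nutlin-3, a small molecule that frees p53 from MDM2, or in the solvent ethanol. Both treatments share the line and the synchronisation. There were 2 libraries per treatment, made on the ddSeq droplet device with a kit that reads the 3' end of polyadenylated RNA, one with ERCC spike-in RNAs diluted 1000-fold and the other 10000-fold. The 250 columns of each treatment carry no mark of the library, so each treatment is 1 pool and no difference below has a replicate or a test.

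Neuroblastoma cells occur in an adrenergic state, held by transcription factors such as HAND2 and GATA3, and in a mesenchymal state that resembles neural crest cells. Mesenchymal cells are known for vimentin filaments, a fibronectin matrix, CD44 and integrins on the surface, active Notch receptors, the co-activators YAP1 and TAZ (the product of WWTR1), and the transcription factors SNAI2 and PRRX1. NGP is commonly used as an adrenergic line.

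The Nutlin-3 pool held 1301232 human counts and the ethanol pool 1342134. In each pool 113 columns had more than 4000 counts (large columns, 5288 to 13502 counts) and 137 had fewer (small columns, 253 to 3598 counts). The names of the large columns were the same 113 in both treatments, and 219 of the 250 names occurred in both. Of all nonzero values in the table, 92.8% were equal to 1. What a column stands for was not tested, and the word column is kept in place of cell.

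The adrenergic label was set beside the counts of its markers. All 16 adrenergic genes had a row and passed the filter on low counts, with 2990 counts under Nutlin-3 and 2900 under ethanol. The 8 members together had 524 and 543, or 403 and 404 CPM (counts per 1000000 counts of a TMM-scaled pool), against 2298 and 2160 CPM for the 16 adrenergic genes. HAND2, a sympathetic lineage factor, had 309 counts under Nutlin-3 and 342 under ethanol, GATA3 had 242 and 209, and GATA2 had 236 and 209. In no large column were fewer than 12 of the 16 adrenergic genes seen. This was not particular to them. The member VIM and the epithelial-mesenchymal transition factors TWIST1 and ZEB1 were seen in all 113 large columns of each pool. VIM, with 277 counts under Nutlin-3 and 276 under ethanol, also lay above GATA3 and GATA2.

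Markers of other cell types were mostly few or without a row. Of 6 Schwann cell markers, SOX10 had no row and ERBB3 was the most abundant, with 13 counts under Nutlin-3 and 8 under ethanol. S100B had 3 and 0 counts, and the list summed to 18 and 10. Of 4 endothelial markers PECAM1, CDH5 and KDR had no row and VWF had 2 and 1 counts. Of 5 immune markers PTPRC, CD3E and MS4A1 had no row, CD14 had 7 in each pool, and LYZ, the lysozyme gene, had 49 and 24. The 7 fibroblast markers summed to 196 and 201 counts, led by the growth factor receptor genes PDGFRA, with 87 and 88, and PDGFRB, with 41 and 38. COL1A2 had no row.

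VIM encodes the intermediate filament vimentin (ENSG00000026025, chromosome 10, 17228259 to 17237593, GRCh38). It had 277 counts in the Nutlin-3 pool (95% Poisson interval 245 to 312) and 276 in the ethanol pool (244 to 311), or 213 and 206 CPM. Its log2 fold change, Nutlin-3 relative to ethanol as throughout, was 0.05 (95% counting interval -0.20 to 0.30). The 2 sums differed by less than their counting error, which is the only error any interval here covers. That error takes counts as Poisson. In large columns counts were spread more evenly, as 190 VIM counts in each pool left 0 of 113 columns empty. The intervals thus need not measure the spread of these counts. VIM lay above 99.3% of the genes detected under Nutlin-3 and 99.1% of those detected under ethanol. The antisense genes VIM-AS1, with 29 counts under Nutlin-3 and 26 under ethanol, and AL133415.1, with 0 and 8, overlap it. Whether the counting used strand is not given in the sources used here.

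ITGB1, the beta subunit shared by many integrins (ENSG00000150093, chromosome 10, 32900319 to 33005792), had 98 counts in each pool (79.6 to 119). These were 75.3 CPM under Nutlin-3 and 73.0 CPM under ethanol, which is a log2 fold change of 0.05 (-0.37 to 0.46). The interval leaves room for a difference of up to 0.46 in size.

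CD44, the hyaluronan receptor (ENSG00000026508, chromosome 11, 35138870 to 35232402), had 58 counts under Nutlin-3 (44.0 to 75.0) and 31 under ethanol (21.1 to 44.0). The levels were 44.6 and 23.1 CPM. Its log2 fold change was 0.94 (0.30 to 1.63), and its interval lay wholly above 0. It was the 1 member of the 6 that passed the filter with a log2 fold change of at least 0.5. Among all 14830 genes that passed, 9.47% were that much higher. With ERCC counts as the library size the median of all genes moved to -0.47. CD44 moved to 0.47 (-0.17 to 1.16), below that limit and with an interval that included 0. Differences here are thus relative to the bulk of the genes. The ERCC sums mix libraries of 1000-fold and 10000-fold dilution that the columns do not separate, so that scaling also depends on their mix. In summed counts, fewer cells with a gene and less of its RNA per cell cannot be told apart. LYZ, the most abundant of the immune markers, was higher in the same pool at 1.06 (0.34 to 1.84), while PTPRC, the marker of all leukocytes, had no row.

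FN1, which encodes the matrix protein fibronectin (ENSG00000115414, chromosome 2, 215360440 to 215436172), went the other way. It had 19 counts under Nutlin-3 (11.4 to 29.7) and 37 under ethanol (26.1 to 51.0), or 14.6 and 27.6 CPM. The log2 fold change was -0.90 (-1.80 to -0.08), with an upper bound close to 0. Of the 6 members that passed, 2 were at or below -0.5, FN1 and NOTCH2, against 7.51% of all genes that passed.

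The 250 bases before the start site are shown for CD44 and FN1, the 2 members whose intervals excluded 0, in opposite directions. The sequences are from RefSeq on GRCh38.p14, which held a promoter for 8 of the 9 members. The start sites are those of RefSeq and differ from the gene bounds given above. By those bounds the CD44 window lies within the CD44 gene and the FN1 window partly within FN1. Both strands were searched for 4 motifs: the TEAD motif GGAATG, through which YAP1 and TAZ act, the E-box CAGGTG bound by SNAI2 and ZEB1, the cAMP response element TGACGTCA and the AP-1 motif TGANTCA. Capitals mark a match.
CD44, chr11:35138921-35139170, plus strand: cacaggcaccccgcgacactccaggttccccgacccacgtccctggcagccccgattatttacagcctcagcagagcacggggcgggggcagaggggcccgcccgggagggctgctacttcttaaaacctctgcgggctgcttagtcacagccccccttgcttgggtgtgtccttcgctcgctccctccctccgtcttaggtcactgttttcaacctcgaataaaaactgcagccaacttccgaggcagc
FN1, chr2:215436069-215436318, minus strand: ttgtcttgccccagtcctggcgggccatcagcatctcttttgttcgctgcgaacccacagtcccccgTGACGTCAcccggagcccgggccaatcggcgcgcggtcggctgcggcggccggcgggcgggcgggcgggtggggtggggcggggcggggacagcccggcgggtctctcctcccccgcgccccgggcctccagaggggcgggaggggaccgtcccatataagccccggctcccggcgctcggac
The FN1 window held 1 cAMP response element, which began 183 bases before the start site, and the CD44 window held none of the 4 motifs. Over 35116 promoters of the same length, 1.65% held the cAMP response element, 11.9% the TEAD motif, 17.5% the E-box and 6.57% the AP-1 motif. A match is a string of letters and was not tied to the counts.

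NOTCH2, a Notch receptor (ENSG00000134250, chromosome 1, 119911553 to 120069626), had 13 counts under Nutlin-3 (6.92 to 22.2) and 20 under ethanol (12.2 to 30.9). On the log2 scale the pools differed by -0.56 (-1.71 to 0.50), an interval that included 0. NOTCH2 has near-identical partial copies, the NOTCH2NL genes, and none of the 4 looked up had a row, so whether their reads went to NOTCH2 is uncertain.

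SNAI2, which encodes the repressor SLUG (ENSG00000019549, chromosome 8, 48917604 to 48921740), had 54 counts under Nutlin-3 (40.6 to 70.5) and 73 under ethanol (57.2 to 91.8). The levels were 41.5 and 54.4 CPM and the log2 fold change was -0.39 (-0.92 to 0.14). The 2 remaining members with a row did not pass the filter. WWTR1 (ENSG00000018408, chromosome 3, 149517235 to 149736714) had 3 counts under Nutlin-3 and 6 under ethanol, which is a log2 fold change of -0.85 whose interval ran from -3.58 to 1.27. PRRX1, a homeobox gene (ENSG00000116132, chromosome 1, 170662728 to 170739419), had 2 counts in each pool, too few for a fold. YAP1 lies on chromosome 11, 102110461 to 102233423, and is not described further for want of a row.

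**Figure D1:**
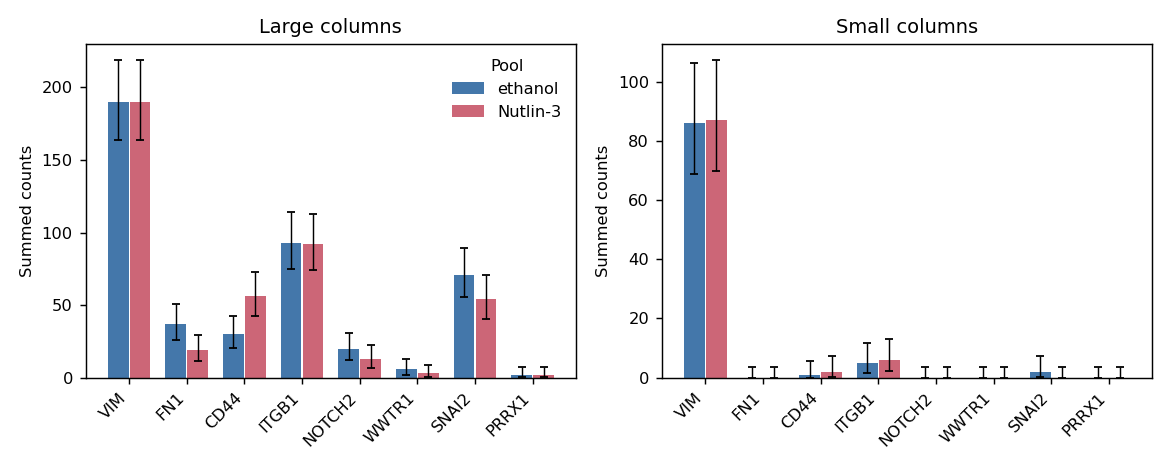
Summed counts (vertical axis) of the 8 members in the large columns (left) and small columns (right) of the ethanol and Nutlin-3 pools; error bars are 95% Poisson intervals. In large columns CD44 stands at 56 under Nutlin-3 and 30 under ethanol and FN1 at 19 and 37, and in small columns VIM supplies nearly every count.

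**Figure D2:**
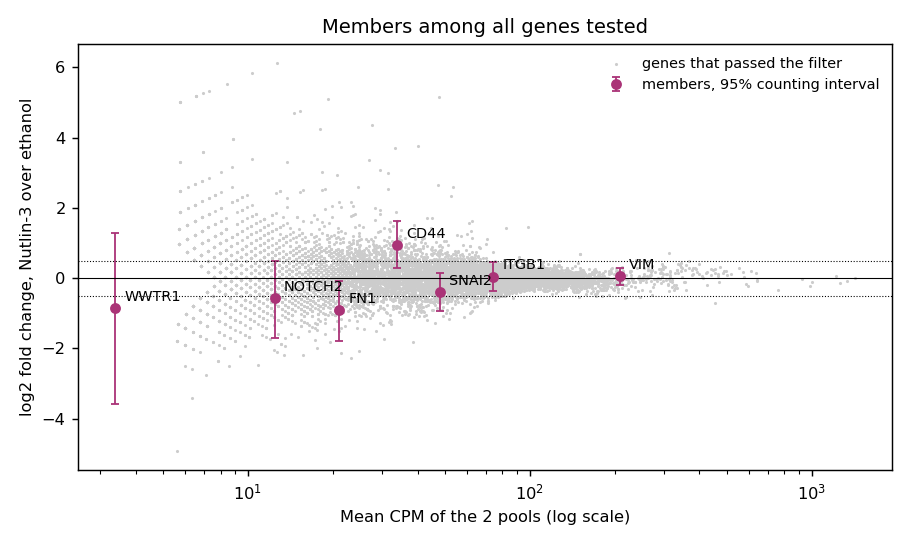
log2 fold change, Nutlin-3 relative to ethanol (vertical axis) against mean CPM of the 2 pools (horizontal axis, log scale) for 14830 genes that passed the filter (grey) and the 7 members with a fold (purple, 95% counting interval); dotted lines mark 0.5 and -0.5. CD44 lies at 0.94, FN1 at -0.90, and VIM and ITGB1 lie at 0.05.

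Levels of the members were set beside each other per kilobase of the longest annotated transcript. This division is rough for a kit that counts 3' ends. On the scale of CPM per kb, the order by the mean of the pools was VIM, ITGB1, SNAI2, CD44, FN1, NOTCH2, WWTR1 and PRRX1. VIM had 79.9 CPM per kb under Nutlin-3 and 77.1 under ethanol, ITGB1 had 19.9 and 19.3, SNAI2 14.7 and 19.2, and CD44 7.78 and 4.03. The counting intervals of VIM and ITGB1 were apart in both pools, as were those of SNAI2 and CD44, while those of ITGB1 and SNAI2 overlapped. FN1 had 1.59 and 3.01 CPM per kb, NOTCH2 0.877 and 1.31, WWTR1 0.458 and 0.889, and PRRX1 0.359 and 0.348. CD44 and FN1 overlapped under ethanol only, FN1 and NOTCH2 under Nutlin-3 only, and the neighbours from NOTCH2 to PRRX1 in both pools. HAND2, on the same scale, had 85.4 under Nutlin-3 and 91.6 under ethanol.

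The members differed in how they filled the columns. VIM was seen in all 113 large columns of both treatments, with 1 count in 57 Nutlin-3 and 55 ethanol columns and 2 or more in the other 56 and 58. Its highest value in a column was 5. ITGB1 was seen in 90 of the 113 large columns in each treatment, or 79.6% (95% exact binomial interval 71.0 to 86.6). All but 2 of those columns under Nutlin-3 and 3 under ethanol held a single count, so ITGB1 was in effect scored as seen or not seen.

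The same held for the members that differed. CD44 was seen in 55 large Nutlin-3 columns, or 48.7% (39.2 to 58.3), and in 29 large ethanol columns, or 25.7% (17.9 to 34.7). FN1 was seen in 19, or 16.8% (10.4 to 25.0), and in 36, or 31.9% (23.4 to 41.3). The intervals of CD44 were apart, and those of FN1 overlapped, but columns are not replicates of a treatment and these intervals are no test of it. SNAI2 was seen in 53 large Nutlin-3 columns and 70 large ethanol columns, 46.9% (37.5 to 56.5) and 61.9% (52.3 to 70.9), again with overlap. NOTCH2 was seen in 13 and 20, WWTR1 in 3 and 6, and PRRX1 in 2 and 2. Large columns had similar depth in both treatments, with a median total of 10647 under Nutlin-3 and 10763 under ethanol. With a single cell line no cell type without these genes was at hand, and the level of free RNA could not be set.

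**Figure D3:**
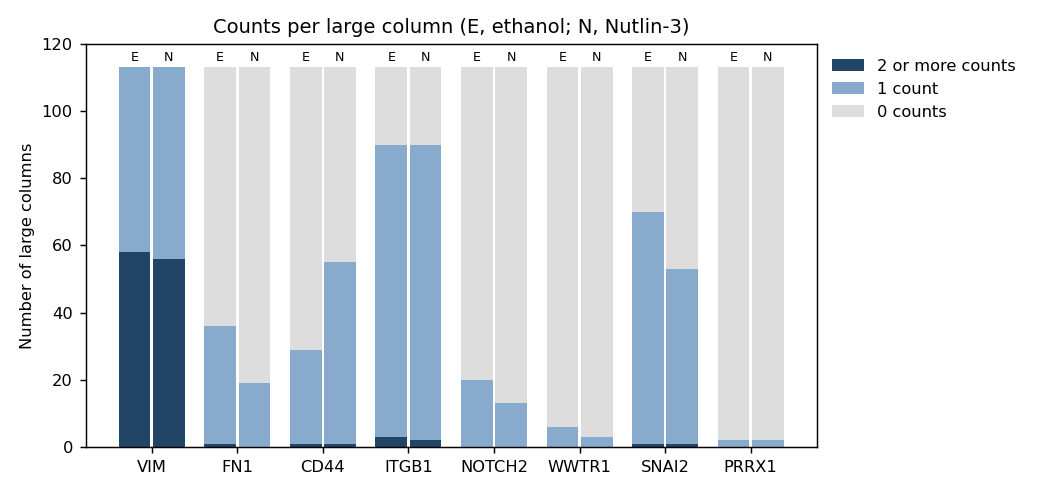
Number of large columns (vertical axis, 113 per pool) with 0, 1 and 2 or more counts of each member under ethanol (E) and Nutlin-3 (N). VIM fills every column, CD44 is seen in 55 Nutlin-3 and 29 ethanol columns, and all other members are almost never above 1 count.

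Since the large columns bear the same names in both treatments, the presence of a member could be set out by name. For CD44, 12 names had it in both treatments, 43 with Nutlin-3 alone, 17 with ethanol alone and 41 in neither. For FN1, 6 names had it in both, 13 with Nutlin-3 alone, 30 with ethanol alone and 64 in neither. For SNAI2 these numbers were 33, 20, 37 and 23, and for ITGB1 74, 16, 16 and 7. What a shared name stands for was not tested, and columns of 1 name were not treated as pairs.

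Large and small columns gave unlike pictures of the members. VIM took 164 CPM of the human counts in the large Nutlin-3 columns (141 to 189) and 618 in the small ones (495 to 762), a ratio of 3.77. In ethanol it took 160 (138 to 184) and 567 CPM (454 to 701), a ratio of 3.56. ITGB1 was lower in small columns. It had 79.3 CPM in large (63.9 to 97.2) and 42.6 in small Nutlin-3 columns (15.6 to 92.7), and 78.1 (63.0 to 95.7) and 33.0 (10.7 to 77.0) under ethanol, with overlapping intervals. SNAI2 had 0 counts in the small Nutlin-3 columns and 2 in the small ethanol columns, and CD44 had 2 and 1. FN1, NOTCH2, WWTR1 and PRRX1 had 0 counts in the small columns of both pools, with a 95% upper Poisson limit of 26.2 CPM under Nutlin-3 and 24.3 CPM under ethanol. VIM made up 44.3% of the members' counts in large Nutlin-3 columns and 91.6% in small ones, and 42.3% and 91.5% under ethanol. VIM held 2.07 counts per ITGB1 count in large and 14.5 in small Nutlin-3 columns, and 2.04 and 17.2 under ethanol. The pool sums above follow the large columns, which hold most of the counts. Depth differs between the classes, and its part in these values was not tested.

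The adrenergic genes moved with column class as VIM did. Their sum was 1984 CPM in large and 4884 CPM in small Nutlin-3 columns, and 1914 and 4097 under ethanol. There were 5.37 adrenergic counts per member count in large Nutlin-3 columns and 7.24 in small ones, against 5.08 and 6.61 under ethanol.

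Members and adrenergic genes were seen in the same columns. The median large column showed 3 of the 8 members in both treatments, with a range of 1 to 6, and 16 of the 16 adrenergic genes, with a range of 12 to 16 under Nutlin-3 and 13 to 16 under ethanol. In the 2 Nutlin-3 and 2 ethanol columns with the most members, 6 were seen. The 55 large Nutlin-3 columns with CD44 showed 15 to 16 adrenergic genes and the 58 without it 12 to 16, at median depths of 10973 and 10208.5 human counts. The 36 large ethanol columns with FN1 showed 14 to 16 and the 77 without it 13 to 16, at 10955 and 10634. The median was 16 in all 4 of these sets. As the member VIM was seen in every large column, these values show only that no large column had fewer than 12 of the 16 adrenergic genes. Whether a column is 1 cell was not tested.

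**Figure D4:**
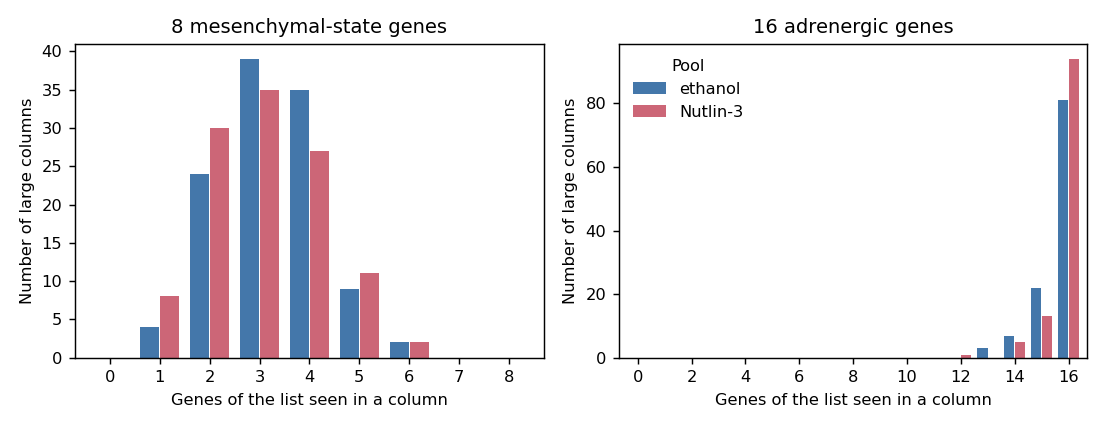
Number of large columns (vertical axis) by how many of the 8 members (left) or 16 adrenergic genes (right) were seen in them (horizontal axis), for ethanol and Nutlin-3. Most columns show 2 to 4 members, and 81 ethanol and 94 Nutlin-3 columns show all 16 adrenergic genes.

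At a common depth of 700 counts per column, 187 Nutlin-3 and 194 ethanol columns remained, 63 and 56 being too shallow. VIM was then seen in 24.6% of Nutlin-3 columns (18.6 to 31.4) and in 24.7% of ethanol columns (18.8 to 31.4), against 77.6% and 77.2% of all 250 columns without thinning. CD44 was seen in 6 Nutlin-3 columns, or 3.21% (1.19 to 6.85), and in 1 ethanol column, or 0.515% (0.013 to 2.84), with overlapping intervals. ITGB1 was seen in 7 and 9 columns, SNAI2 in 4 and 5, FN1 in 1 and 3, and NOTCH2, WWTR1 and PRRX1 in 0. At that depth these genes stood near the level of a single count.

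The genes whose counts went most with VIM over the large columns were looked for among the 8844 genes that averaged 50 CPM or more. Likeness was the smaller of the Pearson correlations of log2(CPM + 1) in the 2 treatments, over 113 columns each. COA4 came first, at 0.31 under ethanol and 0.35 under Nutlin-3, then MRPL14, at 0.29 and 0.30, and PRPF8, at 0.37 and 0.29. Nearly all counts in a column are 1 and all genes of a column share its depth, so these weak correlations are a description and no finding. None of the 3 was in a list used here.

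Partners of the members were described by lists, each beside the median of all genes tested, which was -0.0017 (7361 higher and 7469 lower). The YAP and TAZ partners are the TEAD factors that carry the co-activators to DNA and the Hippo kinases and scaffolds that restrain them. Of 16, 15 had a row and 12 passed the filter, 5 higher and 7 lower under Nutlin-3, with a median log2 fold change of -0.05. Past 0.5 were 0 in either direction, against 9.47% higher and 7.51% lower among all genes tested. TEAD1 had 141 counts under Nutlin-3 and 132 under ethanol, the scaffold gene AMOTL1 124 and 145, and the kinase co-activator gene MOB1A 126 and 139. LATS2 had no row. The most abundant partners of the co-activators were thus well counted, while WWTR1 had 9 counts in all. Other partners were sparser than WWTR1. TEAD2 was seen in 2 Nutlin-3 columns and 1 ethanol column, TEAD4 in 0 and 1, and AMOTL2 in 0 and 2.

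Targets of YAP1 and TAZ were sparse. Of 13, CCN2, ANKRD1, AXL, CRIM1 and LATS2 had no row, and CCN1, which encodes a matricellular protein, had 7 counts under Nutlin-3 and 12 under ethanol. Of the 6 that passed the filter 3 were higher and 3 lower, with a median of 0.0033. The most abundant were DLC1, with 99 and 105 counts, TGFB2, with 58 and 35, and the tissue factor gene F3, with 43 and 50. TGFB2, which encodes a transforming growth factor, had a log2 fold change of 0.77 (0.14 to 1.42).

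Transcription factors of the epithelial-mesenchymal transition were counted more than the member PRRX1 would show. TWIST1 had 230 counts under Nutlin-3 and 210 under ethanol, ZEB1 154 and 157, and SNAI1, the relative of SNAI2, 129 and 122. Of 9 factors 7 had a row, SNAI3 and TWIST2 being without one. Of the 6 that passed the filter 4 were higher and 2 lower, and the median was 0.07. None (0) of the 6 reached 0.5 in size, against 9.47% higher and 7.51% lower among all genes tested. SNAI2, at -0.39, had the lowest value of the 6. Per kilobase, TWIST1 had 106 CPM per kb under Nutlin-3 and 93.9 under ethanol, above the values of the 8 members.

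In the Notch pathway 20 of 21 genes had a row, DLL4 being without one, and 18 passed the filter. Of these 12 were higher and 6 lower, with a median of 0.05. RBPJ, the DNA-binding partner of cleaved Notch, had 173 counts under Nutlin-3 and 163 under ethanol, the ligand gene DLL3 128 and 123, and ADAM10, a protease that cleaves Notch, 125 and 122. HES1, a target of the pathway, had 21 in each pool. Of the 18 that passed, NOTCH2 was the only gene at or below -0.5. The only one of the 18 at or above 0.5 was JAG2, a ligand gene with 46 and 32 counts, at 0.56 (-0.11 to 1.27). Among all genes tested 7.51% were that much lower and 9.47% that much higher. NOTCH1, too low for the filter, had 8 counts under Nutlin-3 and 0 under ethanol.

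Integrin partners of ITGB1 include its alpha subunits and the adaptors at its cytoplasmic tail. Of 17, ITGA5 had no row and 13 passed the filter, 3 higher and 10 lower, with a median of -0.14. At or above 0.5 were 2, and at or below -0.5 were 3, against 9.47% and 7.51% of all genes tested. The 2 higher ones were ITGA7, with 11 counts under Nutlin-3 and 6 under ethanol, and ITGA10, with 10 and 7. Both passed the filter through the pool where they are high, so these numbers are no result about the list. The most abundant were ITGB1BP1, with 160 counts under Nutlin-3 and 183 under ethanol, the alpha subunit gene ITGAV, with 121 and 143, and the adaptor gene FERMT2, with 120 and 136. The lowest value belonged to the alpha subunit gene ITGA8, with 5 and 19 counts and a value of -1.78 (-3.66 to -0.41). ITGA8 too passed the filter through the pool where it is high.

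Several intermediate filament genes besides VIM were well counted, and VIM itself is in this list. Of 10, DES and GFAP had no row and 8 passed the filter, 4 higher and 4 lower, with a median of -0.02. INA, which encodes a neuronal filament protein, had 212 counts under Nutlin-3 and 197 under ethanol, and NES, the nestin gene, 191 and 208. SYNM, the synemin gene, had 52 and 81, which is a log2 fold change of -0.59 (-1.13 to -0.07).

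Matrix and mesenchymal surface genes held the widest range of values among the lists. Of 19, COL1A2 and ANXA1 had no row and 12 passed the filter, 8 higher and 4 lower, with a median of 0.15. At or above 0.5 were 3, ACTA2, COL1A1 and LGALS1, and at or below -0.5 was 1, LOX, beside the same 9.47% and 7.51%. The most abundant lay near 0, with ANXA2 at 123 counts under Nutlin-3 and 139 under ethanol, SPARC at 125 and 125 and COL6A1 at 108 and 93. ACTA2, the smooth muscle actin gene, had 69 and 3 counts, which is a log2 fold change of 4.36 (2.96 to 6.88), and passed the filter through the pool where it is high. It overlaps FAS, a p53 target on the opposite strand, which had 33 and 3 counts, and STAMBPL1, also opposite, with 43 and 62. Without knowing how strand was counted, their reads cannot be told apart. LOX, the lysyl oxidase gene, had 25 and 60 counts, which is a log2 fold change of -1.20 (-1.95 to -0.52). LUM, a fibroblast marker that encodes the matrix protein lumican, had 13 and 34, a value of -1.31 (-2.39 to -0.38). COL1A1, a collagen gene, had 47 and 29, a value of 0.73 (0.04 to 1.46), and LGALS1, the galectin gene, 18 and 11, also 0.73 (-0.40 to 1.98).

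AP-1 and other mesenchymal transcription factors completed the lists. Of 20, 17 had a row, MEOX1 and MEOX2 being among those without one, and 12 passed the filter, 8 higher and 4 lower, with a median of 0.14. At or above 0.5 was 1 and at or below -0.5 were 3, against 9.47% and 7.51% of all genes tested. ID1 had 175 counts under Nutlin-3 and 154 under ethanol, ELK4 136 and 127, and the AP-1 subunit gene FOSL2 131 and 118. FOSL1, another AP-1 subunit gene, had 14 and 1 counts, which is a log2 fold change of 3.32 (1.14 to 9.25), and passed the filter through the pool where it is high. The 3 lower ones were NR3C1, the glucocorticoid receptor gene, with 46 and 72 counts, TBX18, with 11 and 19, and SMAD3, with 10 and 16, at -0.60 (-1.17 to -0.05), -0.72 (-1.96 to 0.40) and -0.61 (-1.93 to 0.60).

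The 16 adrenergic genes lay nearer to 0. Their median log2 fold change was 0.10, with 11 higher and 5 lower, and single values ran from -0.10 to 0.38. None (0) was past 0.5, against 9.47% higher and 7.51% lower among all genes tested. The median was 0.05 in large columns alone and 0.38 in small columns alone, so the value near 0 follows the large columns. The values of the 6 members that passed the filter ran from -0.90 to 0.94. Members have fewer counts, and thus wider counting error, than the adrenergic genes, so the 2 ranges were not compared further.

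**Figure D5:**
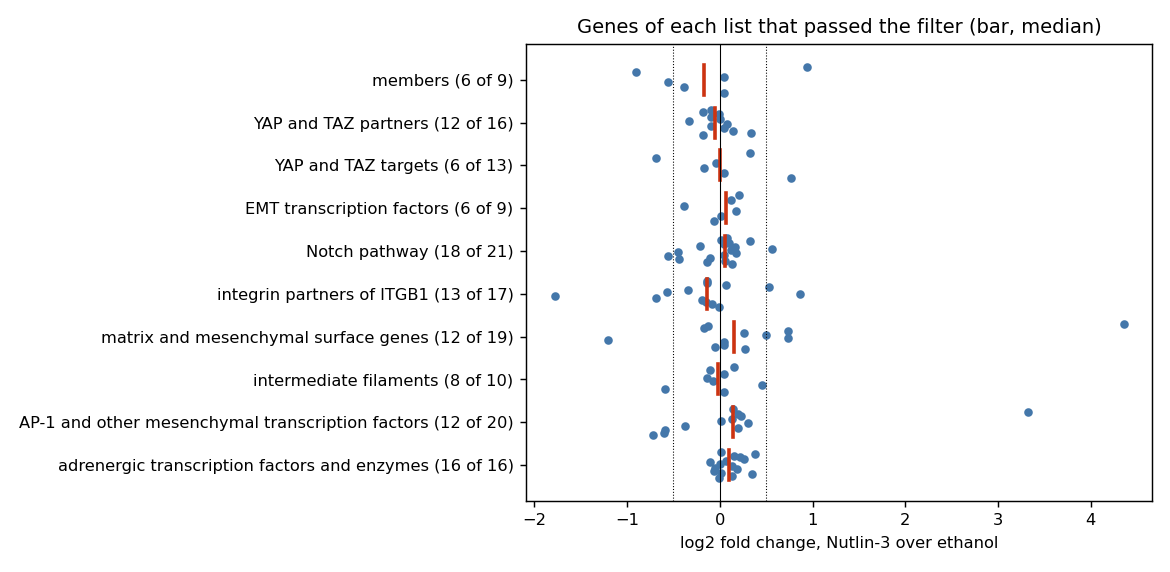
log2 fold change, Nutlin-3 relative to ethanol (horizontal axis) of each gene that passed the filter, by list (vertical axis, genes passed of genes listed); red bars are medians and dotted lines mark 0.5 and -0.5. Medians of the lists drawn lie between -0.17 and 0.15, ACTA2 at 4.36 and FOSL1 at 3.32 stand to the right, and the 16 adrenergic genes lie between -0.10 and 0.38.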

How the data were processed

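Raw counts of each gene in each column were deposited by the authors as 1 table, from ddSeq libraries of polyadenylated RNA, per the labels' protocols. For the aligner, barcode and molecular tag handling, build, annotation and filter on columns, the sources used here give nothing. Columns ending in treated were taken as Nutlin-3 and those ending in untreated as ethanol, and 0 columns were left out. No doublet caller was run, and the sources used here say nothing of doublets removed earlier. The 62 ERCC species were kept out of the sums.

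Counts were summed per treatment. TMM factors and the filter on low counts (minimum 10) came from edgeR 4.0.16 in R 4.3.3, and no test was run. A pseudocount of 0.5 entered every log2 fold change. The share of a gene's counts that fell to Nutlin-3, with exact binomial limits (SciPy 1.17.1), gave the 95% counting interval, and sums have exact Poisson intervals. No fold was given where both sums were at or under 3 counts. Intervals cover counting error only and take counts as Poisson, which the counts in large columns did not follow. Fold and interval code was checked on simulated Poisson counts, which does not check how the intervals hold for the real counts. For shares, columns were thinned at random to 700 or 350 counts, and the class limit of 4000 counts follows a gap in the totals. Symbols matched 25422 of 25693 identifiers, and positions are from GENCODE release 29, whose build need not be the authors'.

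The members and the 13 lists of partners and markers were chosen with earlier results of these data known. The naming rule took all members, list genes without a row, the 3 most abundant of each list (some are not reported here), and genes past a log2 fold change of 0.5 with a mean of at least 50 CPM. ACTA2, FAS, STAMBPL1, LOX, LUM, FOSL1, NOTCH1, JAG2, ITGA8, NR3C1, TBX18, SMAD3, LGALS1, CCN1 and HES1 were named after their values had been seen. So were ITGA7, ITGA10, TEAD2, TEAD4 and AMOTL2. Alternatives were DESeq2 1.42.0 size factors, ERCC counts as library size, a pseudocount of 1, no filter, classes of columns, columns named in 1 treatment only, leaving out the shallowest columns, other fold limits and thinning depths, and counts taken as 1 or 0.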

Additional observations from a re-analysis of the deposited data

How the results depend on the processing

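Of 45 fold changes of the 7 members under alternatives, 43 stayed within the counting interval of the first value and 2 left it, VIM and ITGB1, both at -0.42 with ERCC counts as library size. That scaling moved the median of all genes to -0.47, so VIM and ITGB1 keep to that median, CD44 stands at 0.47 with an interval that includes 0 (-0.17 to 1.16), and SNAI2 at -0.85 (-1.39 to -0.33). The intervals of VIM, ITGB1, FN1 and SNAI2 then lie below 0. ERCC scaling mixes 2 dilutions of the spike-in RNAs in each pool, in parts that are unknown, so these values also depend on that mix. The medians of the YAP and TAZ targets, the EMT factors, the Notch, matrix and AP-1 lists and the adrenergic genes turn from above to below 0. DESeq2 size factors moved the median of all genes to 0.00053. In small columns alone the list medians were 0.56 for Notch (6 genes), -0.60 for YAP and TAZ partners (5), 0.47 for AP-1 (3), 0.34 for EMT factors (3) and 0.38 for adrenergic genes (16). All of these moved from the first values. The integrin (-0.21), matrix (0.14) and intermediate filament (0.13) medians did not. Members at or above 0.5 numbered 0 with ERCC scaling, where 3 lay at or below -0.5, and 0 in small columns, where 1 member passed the filter and 0 lay at or below -0.5. The share of all genes past these limits was not computed for either setting. With ERCC scaling the median of all genes, -0.47, itself lies close to the lower limit, so the 3 are no result about the members. Shares of columns followed depth: VIM was seen in 15.6% of Nutlin-3 and 13.3% of ethanol columns at 350 counts, in 77.6% and 77.2% without thinning, and in 12.4% and 11.5% of large columns at 700 counts. CD44 without thinning was seen in 22.8% and 12.0% of columns. Other results moved more often than the fold changes. Of the medians 14 moved and 30 stayed, of the shares of columns 21 moved and 27 stayed, and of the counts past the fold 3 moved and 9 stayed. Columns with names in 1 treatment alone held enough counts for VIM only, at 0.27. No paired analysis was possible because no column name shows a library or its replicate number, and for the same reason no library could be left out. Columns that share a name were not taken as pairs. The DESeq2 value for all genes was chosen after seeing the data.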
